A study of Mus musculus with 2 samples.

Results

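Single-cell RNA sequencing of tumor mononuclear phagocytes from B16 melanoma held 718 cells that gave the largest share of their RNA to 3 inflammatory genes, Nos2, Irg1 and Inhba, out of 14351 cells in all. The cells came from C57Bl/6 mice that were either Fcmr+/+ or carried a germline deletion of Fcmr (Fcmr-/-), the gene of an Fc receptor for IgM. Both genotypes bore intradermal B16F0 tumors, a transplantable mouse melanoma line, and no group was without a tumor. Phagocytes were sorted on MerTk and CD64, and each genotype gave 1 droplet library of 3' ends, in which every RNA molecule carries a unique molecular identifier (UMI). The deletion was present in every cell of the mouse and not in phagocytes alone, and the number of mice and tumors in each library is not given in the sources used here. With 1 library per genotype there is no replicate of any group, so no test between genotypes was possible, and every interval given covers counting error only.

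For each cell with 200 to 7000 genes and at most 30% mitochondrial UMIs, the UMIs of Nos2, Irg1 and Inhba were summed and divided by the cell's total. Members were the top 5% of the pooled cells on this score. They are therefore chosen by measured values, and the levels of the 3 genes in them, and of all other genes against the remaining cells, are descriptions and not tests. The last cells inside the threshold had scores of 954.4, 953.7 and 953.1 UMIs per 1000000 UMIs of the cell, and the first cells outside had 952.3, 952.0 and 951.5. The cells inside held 5, 11 and 6 UMIs of the 3 genes, so membership at the threshold turned on a few molecules. None of the 40 Fcmr+/+ and 18 Fcmr-/- barcodes removed by the quality limits passed the threshold.

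Nos2 encodes inducible nitric oxide synthase, which makes nitric oxide from arginine. Irg1, now named Acod1, encodes the enzyme that diverts cis-aconitate from the tricarboxylic acid (TCA) cycle to itaconate, a metabolite with effects on bacteria and on the inflammatory response of the macrophage itself. Inhba encodes the subunit that dimerizes into activin A, a secreted member of the TGF-beta family. All 3 are textbook genes of macrophages stimulated through Toll-like receptors, where NF-kB takes part in switching them on and interferons raise Nos2 and Irg1 further. Nos2 lies at chr11:78920787-78960254 on the plus strand, Irg1 at chr14:103046977-103056573 on the plus strand and Inhba at chr13:16011851-16031621 on the plus strand of GRCm38.

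The promoters of Irg1 and Inhba are shown since their transcripts were scored together. The 250 bases before the start site are given 5' to 3' on the plus strand from RefSeq (GRCm38.p6), with capitals marking a match to the hypoxia element ACGTG on either strand.
Irg1 (Acod1), chr14:103046762-103047011: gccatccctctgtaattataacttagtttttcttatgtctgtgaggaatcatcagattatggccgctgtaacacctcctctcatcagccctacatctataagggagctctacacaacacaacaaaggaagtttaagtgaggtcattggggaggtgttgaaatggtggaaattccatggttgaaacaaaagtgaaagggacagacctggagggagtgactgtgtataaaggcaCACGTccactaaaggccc
Inhba, chr13:16011601-16011850: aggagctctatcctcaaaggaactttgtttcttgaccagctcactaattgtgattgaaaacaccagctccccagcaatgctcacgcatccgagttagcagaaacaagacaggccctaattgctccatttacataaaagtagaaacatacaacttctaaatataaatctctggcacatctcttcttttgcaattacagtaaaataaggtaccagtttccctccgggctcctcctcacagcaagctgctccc
Over the full 300 bases held for each gene, which reach 50 bases past the start, the Irg1 promoter held 1 such match, beginning 18 bases before the start, and the Inhba promoter held none. The element occurs in 19.6% of 32851 promoters of that length. Neither promoter held the NF-kB consensus, found in 4.51% of promoters, the interferon-stimulated response element GAAANNGAAA, found in 3.44%, the gamma-activated site TTCNNNGAA, found in 8.30%, or the AP-1 site TGANTCA, found in 7.81%. All were searched on both strands, and a missing match says only that these letters were not in this window. Nos2 was not analysed in this respect.

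Members were far more frequent in the Fcmr-/- library. They were 98 of 6352 Fcmr+/+ cells, or 1.54% (95% exact Clopper-Pearson interval 1.25 to 1.88), and 620 of 7999 Fcmr-/- cells, or 7.75% (7.17 to 8.36), a ratio of the shares of 5.02 (4.07 to 6.20). The Fcmr-/- library thus gave 86.4% of members and 55.7% of all cells. A threshold set within each library gives 5% in both, so the ratio describes how the scores differed in height between the libraries. The remaining cells differed in the same direction, since 76.6% of them in Fcmr+/+ and 57.0% in Fcmr-/- held no UMI of the 3 genes. Whether the mice, the tumors, the sort or the library preparation moved with the genotype cannot be told apart here. The libraries shared 73 cell barcodes, carried by 8 members, and no shared barcode was a member in both.

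Members had fewer UMIs per cell than the remaining cells. The score divides by a cell's total UMIs, so depth is part of how members were chosen. Their lower depth is a description and not a separate trait. Their median depth was 9188 UMIs in Fcmr+/+ and 8388.5 in Fcmr-/-, against 18117.5 and 13443 in the remaining cells, with a median of 2349.5 genes in both genotypes against 3765 and 3239. The median mitochondrial share was 2.82% and 2.88% of UMIs in members against 4.72% and 4.16%. The Fcmr+/+ and Fcmr-/- libraries held 131062107 and 125802196 UMIs as deposited, and members 1160054 and 6443109, so ratios are less precise in Fcmr+/+. With every cell thinned to 5000 UMIs, a depth all cells reached, the ratio of the member shares was 4.08.

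Levels are given as UMIs per 1000000 summed UMIs of a group of cells (CPM), and ratios as the log2 of members over remaining cells of the same library after adding 1 CPM to both. Nos2 stood at 221.5 CPM (195.3 to 250.3) in Fcmr+/+ members and 414.4 CPM (398.8 to 430.4) in Fcmr-/- members, against 6.73 and 20.01 CPM in the remaining cells. Irg1 stood at 383.6 CPM in Fcmr+/+ members and 480.8 CPM in Fcmr-/- members, against 15.7 and 50.6 CPM in the remaining cells. Inhba stood at 1221 CPM in Fcmr+/+ members and 1097 CPM in Fcmr-/- members, against 15.3 and 35.1 CPM in the remaining cells. Members of both genotypes passed 1 threshold on these genes, which sets their levels, and in the remaining cells all 3 were higher in Fcmr-/-. Fcmr itself was at or near 0 throughout, with no UMI in Fcmr+/+ members, 0.310 CPM in Fcmr-/- members, 0.0550 CPM in the remaining Fcmr+/+ cells and 0.0338 CPM in the remaining Fcmr-/- cells, so its transcript could not check the genotypes.

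**Figure D1:**
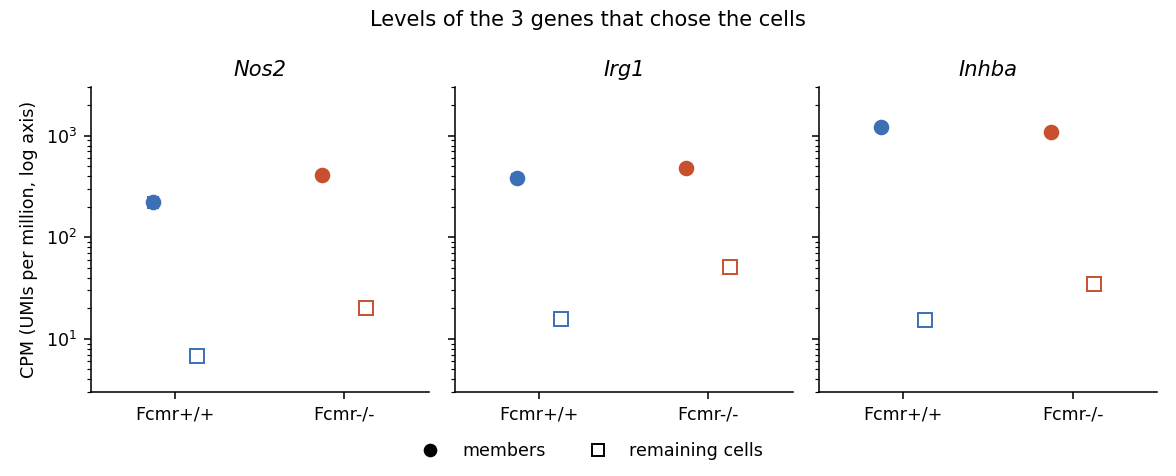
Level of Nos2, Irg1 and Inhba in CPM on a log axis, for members (filled circles) and remaining cells (open squares) of each library, with exact Poisson 95% intervals that are mostly smaller than the symbols. Members were chosen by these genes; the remaining Fcmr-/- cells lie above the remaining Fcmr+/+ cells in all 3 panels.

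The 3 genes did not contribute equally. Inhba gave 66.9% of the score UMIs of Fcmr+/+ members and 55.1% of those of Fcmr-/- members. It was the most abundant of the 3 in 64 of 98 Fcmr+/+ and 356 of 620 Fcmr-/- members, Irg1 in 18 and 141, and Nos2 in 15 and 107, with ties in 1 and 16. All 3 genes were detected in 28.6% of Fcmr+/+ members and 39.7% of Fcmr-/- members, and only 1 of them in 27.6% and 17.4%. Per cell, Inhba ranged from 0 to 5551 CPM around a median of 1098 in Fcmr+/+ members and from 0 to 9636 around 986.8 in Fcmr-/- members. Nos2 had a median of 80.5 CPM in Fcmr+/+ members and 169.4 in Fcmr-/- members, with a lower quartile of 0 in both.

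Shares of cells with a UMI depend on depth, so they were also counted after thinning. Nos2 was seen in 51.0% of Fcmr+/+ and 62.6% of Fcmr-/- members, and in 42.9% and 53.9% once thinned. Irg1 was seen in 57.1% and 76.3% of members, and in 50% and 66.1% once thinned. Inhba was seen in 92.9% and 83.4% of members, and in 89.8% and 79.7% once thinned. In the remaining cells, thinned shares were 2.93% and 7.21% for Nos2, 5.48% and 15.9% for Irg1, and 5.84% and 11.1% for Inhba. Every cell kept had at least 5 UMIs of macrophage genes, so no cell type lacking these genes was there to set the level of free RNA.

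Each gene was also raised in cells chosen by the other 2 genes alone, a choice that did not use it. Nos2 stood at 103.5 CPM in the 108 Fcmr+/+ cells chosen by Irg1 and Inhba and at 7.64 CPM in the rest, a 13.6-fold difference, which was 9.20-fold in Fcmr-/- (261.3 against 28.4 CPM). Irg1 was 9.68-fold higher in Fcmr+/+ and 4.69-fold higher in Fcmr-/- cells chosen by Nos2 and Inhba. Inhba was 15.9-fold and 7.38-fold higher in cells chosen by Nos2 and Irg1. These cells overlapped with members unequally, and 442 of 718 members (61.6%) were kept when Inhba was left out, against 581 without Irg1 and 613 without Nos2. Over all cells, 60.0% of Nos2-positive Fcmr-/- cells also held Irg1, a gene found in 31.3% of all Fcmr-/- cells, and in Fcmr+/+ the shares were 29.6% and 12.1%.

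Macrophage genes were detected in members but most were lower than in the remaining cells. All 12 genes tested had UMIs in members, among them the sort genes Mertk (35.3 CPM in Fcmr+/+ and 27.2 in Fcmr-/- members against 63.1 and 49.9 CPM) and Fcgr1, which encodes CD64 (331.9 and 560.4 CPM against 249.6 and 385.3 CPM). The medians of the 12 genes were -0.79 and -0.61 on the log2 scale, and none was 2-fold or more higher. The 3 genes 2-fold or more lower in both genotypes were the complement genes C1qa, C1qb and C1qc. Summed, these 12 genes gave 17692 CPM in Fcmr+/+ members and 20817 in Fcmr-/- members, against 32704 and 30890 in the remaining cells, and Lyz2 gave the most UMIs. Markers of other cell types were also counted, and their part in the results was not tested. The T and NK cell list summed to 9.48 and 11.3 CPM in members against 4.37 and 21.4 CPM in the remaining cells, with Cd2 and Nkg7 the most abundant and 7 and 3 of its 14 genes at 0 in members. The B cell list summed to 3.45 and 3.72 CPM, of which Cd79b gave 4 of 4 UMIs in Fcmr+/+ and 17 of 24 in Fcmr-/- members. The dendritic cell list summed to 4.31 and 14.9 CPM against 22.6 and 33.8 CPM, mostly Batf3, with 11 of 14 genes at 0 in Fcmr+/+ members and Flt3 at 0 in members of both genotypes. Mast cell genes had no UMI in members. Fibroblast and endothelial genes summed to 25.9 and 36.0 CPM against 10.3 and 16.1 CPM, led by Kdr, with the collagen gene Col1a1 at 0 and 0.155 CPM, and 10.2% and 7.10% of members held 2 or more of their UMIs against 3.23% and 4.72% of the remaining cells. Melanoma genes, led by Mitf, summed to 83.6 and 112.7 CPM in members and to 81.2 and 112.8 CPM in the remaining cells, with 2 or more UMIs in 21.4% and 27.7% of members and in 39.3% and 41.4% of the remaining cells.

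The neutrophil list also had a higher sum in members, 184.5 against 82.4 CPM in Fcmr+/+ and 335.4 against 134.3 CPM in Fcmr-/-, and their part in the results was not tested. Mmp8, which the matrix list below holds too, led it, at 60.3 and 218.4 CPM in members, followed in Fcmr-/- by S100a8 at 46.1 CPM. Of its 5 measured genes, 3 were 2-fold or more higher in both genotypes, with medians of 1.27 and 1.27 on the log2 scale. Against remaining cells of like depth, described below, the medians were 0.86 and 0.86. Without the member cell holding most UMIs of each gene, 2 were higher in both. The defining genes Retnlg and Ngp were at 0 in members of both genotypes and Ly6g at 0 and 0.155 CPM. These 3 were nearly absent from the remaining cells too, with 30, 0 and 0 UMIs in Fcmr+/+ and 36, 0 and 2 in Fcmr-/-. S100a9 stood at 0 and 2.95 CPM in members, against 0.809 and 3.39 CPM in the remaining cells. Xist was at 1226 and 1066 CPM in members and the 4 Y-linked genes were at 0 in every group.

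Of 8376 genes with at least 5 CPM in each library, the 3 score genes left out, 337 (4.02%) were 2-fold or more higher in Fcmr+/+ members and 210 (2.51%) in Fcmr-/- members, 179 (2.14%) of them in both. Lower by 2-fold or more were 1235 (14.7%) in Fcmr+/+ and 445 (5.31%) in Fcmr-/-, 358 (4.27%) in both, and no gene passed 2-fold in opposite directions. These shares are the background for the lists below. The median gene was itself lower in members, at -0.33 on the log2 scale in Fcmr+/+ and -0.20 in Fcmr-/-. These values are given to be set beside the list medians, which were called at 0.5 in size without subtracting them. Scaled so that the median gene is at 0, 656 genes were higher and 659 lower in Fcmr+/+, and 343 and 278 in Fcmr-/-, so the excess of lower genes depended on the scaling.

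**Figure D2:**
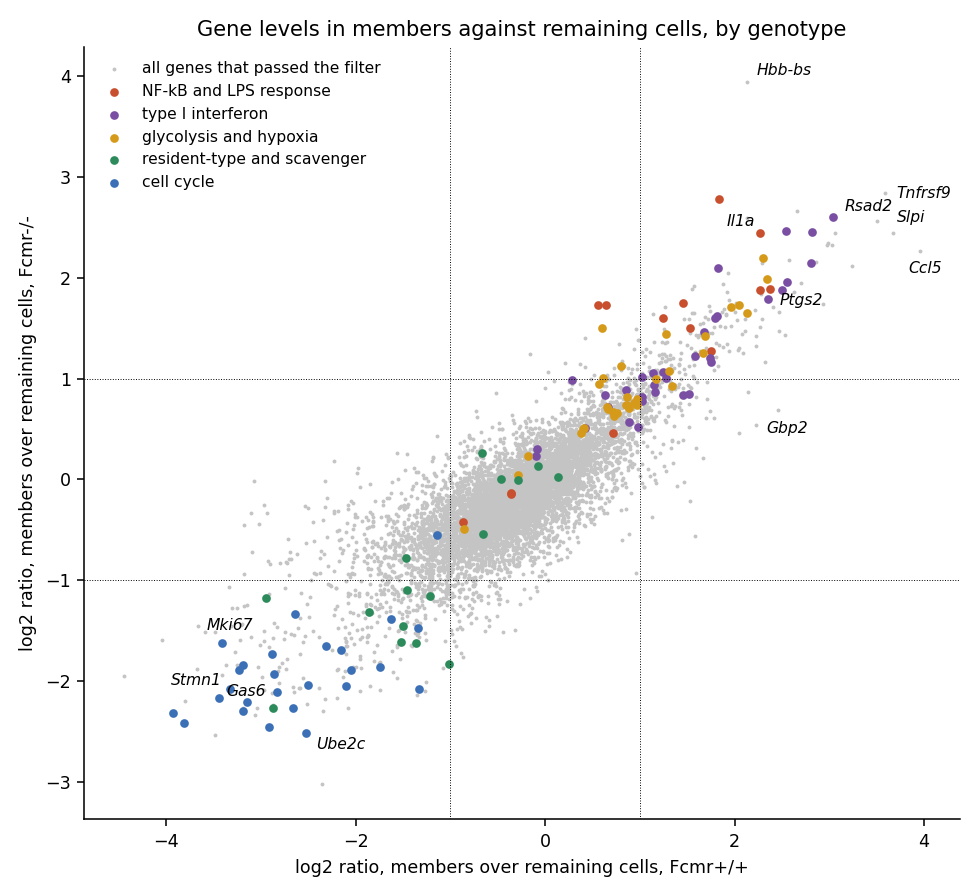
Log2 ratio of members over remaining cells for each gene that passed the filter, in Fcmr+/+ (horizontal) and Fcmr-/- (vertical), with 5 gene lists in colour and dotted lines at 2-fold. Most interferon, NF-kB and hypoxia genes sit toward the upper right and all cell cycle genes toward the lower left; Hbb-bs rests on 1 cell in each genotype.

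Cytokines and mediators that NF-kB and bacterial lipopolysaccharide (LPS) induce were higher as a list. Of 14 measured genes, 8 were 2-fold or more higher in Fcmr+/+ members and 10 in Fcmr-/- members, with medians of 1.35 and 1.66, and none was lower. In Fcmr+/+ the type I interferon list was close by, at 1.28, and stood above it under some alternatives, at 1.90 against 0.949 for the top 2% of cells. With each gene measured without the member cell that held most of its UMIs, the medians were 0.68 and 1.52, and the genes called in both went from 8 to 6, without Saa3 and Lif. Il1a, the alarmin form of interleukin 1, stood at 694.8 and 625.3 CPM in Fcmr+/+ and Fcmr-/- members against 143.4 and 114.5 CPM in the remaining cells. Ptgs2, the inducible cyclooxygenase, stood at 1132 and 1376 CPM against 217.9 and 371.4 CPM. Il1b stood at 4658 and 5045 CPM against 1617 and 1784 CPM, ratios of 1.53 and 1.499. Tnf had ratios of 1.46 and 1.75, and Il1rn, the receptor antagonist that opposes interleukin 1, had 1.75 and 1.27. Il6 was carried by few cells, 20.4% of Fcmr+/+ and 13.4% of Fcmr-/- members against 7.44% and 4.39% of the remaining cells. Il10, the anti-inflammatory cytokine, was not raised, at 90.5 and 45.2 CPM in members against 116.6 and 49.8 CPM. Il12a and Il12b, the interleukin 12 subunits, were at 0 in Fcmr+/+ members and at 1.86 and 1.09 CPM in Fcmr-/- members. Ptges, the enzyme after Ptgs2 in the making of prostaglandin E, lay below the filter but stood at 112.9 and 60.2 CPM in members against 3.16 and 3.71 CPM.

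The NF-kB pathway itself moved less. Of 25 genes, 5 were 2-fold or more higher in each genotype, 4 of them in both, and the medians were 0.62 and 0.76. Those 4 were Nfkbia, the inhibitor that NF-kB induces against itself (3465 and 2713 CPM in members against 1641 and 1340 CPM), the adaptor Traf1 (ratios of 1.94 and 1.78), the survival gene Bcl2a1a (1.75 and 1.23) and Sod2, the mitochondrial superoxide dismutase (1.20 and 1.15). The subunits were closer to the median gene, with Nfkb1 at 0.60 and 0.67, Rel at 0.64 and 0.66, and Rela at 0.21 and 0.49. Bcl2a1a shares sequence with its near-identical copies, so its reads may be split among them. Of 28 receptor and adaptor genes of the Toll-like, interleukin 1 and interferon gamma pathways, 2 were 2-fold or more higher in both, the LPS co-receptor Cd14 (1.15 and 1.01) and the inhibitory kinase Irak3 (1.35 and 1.20). Tlr4, the LPS receptor, was level at 31.0 and 35.1 CPM in members against 28.0 and 36.8 CPM.

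Chemokines divided. Of 19 ligands, 7 were 2-fold or more higher in both genotypes: the neutrophil attractants Cxcl1, Cxcl2 and Cxcl3, the ligands Ccl3, Ccl4 and Ccl5, and the interferon-induced Cxcl10. Cxcl3 stood at 850.8 and 928.4 CPM in members against 103.1 and 184.2 CPM in the remaining cells. Cxcl2 stood at 11256 and 8675 CPM against 3402 and 3171 CPM. Ccl5 stood at 468.1 and 247.2 CPM against 29.2 and 50.8 CPM, but in only 21.4% and 20.6% of members. The monocyte attractants did not follow them, with Ccl2 at 0.07 and 0.48 and Ccl7 at 0.24 and 0.20 on the log2 scale. The 1 ligand that was 2-fold or more lower in both was Ccl17, with no UMI in Fcmr+/+ members and 0.466 CPM in Fcmr-/- members against 12.9 and 5.70 CPM. That call rests on few cells. Fcmr-/- members held 3 Ccl17 UMIs, and 1.74% and 0.732% of the remaining cells held any. Single cells gave 18.9% and 25.5% of its UMIs there. Ccl8 was at -1.19 and -0.98, with 32.3% of its UMIs in Fcmr+/+ members from 1 cell, and Cxcl9, an interferon gamma target, stood at 5.17 and 127.7 CPM in members against 14.6 and 188.8 CPM.

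Type I interferon genes were higher as a list, and type II interferon genes less firmly so. Of 33 type I interferon genes, 24 were 2-fold or more higher in Fcmr+/+ members and 18 in Fcmr-/- members, all 18 in both, with medians of 1.28 and 1.02. Rsad2, the antiviral enzyme viperin, stood at 1350 and 1189 CPM in members against 162.9 and 195.0 CPM in the remaining cells. Ifit1 stood at 504.3 and 302.3 CPM against 70.9 and 54.5 CPM, and Ifi205 at 132.8 and 171.7 CPM against 18.2 and 38.1 CPM. Ifnb1, interferon beta itself, was found in 9 of 98 Fcmr+/+ and 22 of 620 Fcmr-/- members (9.18% and 3.55%) against 2.67% and 0.908% of the remaining cells, and 1 cell gave 39.4% of its UMIs in Fcmr+/+ members. Of 14 type II interferon genes, 5 were 2-fold or more higher in Fcmr+/+ members and 2 in Fcmr-/-, and only Socs1, a brake on cytokine signaling (38.8 and 36.8 CPM against 8.37 and 14.8 CPM), and Cd274, which encodes PD-L1 (253.4 and 297.2 CPM against 61.6 and 98.5 CPM), passed in both. The median of this list was 0.51 and 0.57, just past the 0.5 used to call a list. In Fcmr+/+ it was 0.19 with Irg1 left out of the score and 0.18 without the member cell holding most UMIs of each gene. Without cells holding a cell cycle UMI it was 0.06 in Fcmr+/+. The call was also lost in Fcmr-/-, where the lowest median under an alternative was 0.32. MHC class II genes stayed near the median gene, with list medians of -0.31 and -0.08. Cd74 stood at 2393 and 3393 CPM in members against 2293 and 3305 CPM. Against remaining cells of like depth, described below, the list medians were -0.64 and -0.22.

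Some arginine genes were also high in members. The arginine transporter Slc7a2 stood at 113.8 and 85.5 CPM against 12.7 and 14.9 CPM in the remaining cells, although 1 cell gave 39.4% of its UMIs in Fcmr+/+ members, which stood at 70.3 CPM without it. Ass1, which rebuilds arginine from citrulline, stood at 56.0 and 45.8 CPM against 6.44 and 12.99 CPM. Both were among the 4 genes of the list of 15 that were 2-fold or more higher in both, and Gch1, which starts the synthesis of the Nos2 cofactor tetrahydrobiopterin, had ratios of 0.65 and 1.01. The median of the list was -0.31 and -0.30, next to that of all genes.

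TCA cycle genes were not raised with Irg1. Of 32 genes of the cycle and of the redox response, 7 were 2-fold or more lower in Fcmr+/+ members and 4 in Fcmr-/-, Idh2 and Idh3a in both, and the medians were -0.64 and -0.42. Idh2 stood at 37.9 and 37.6 CPM against 97.9 and 83.1 CPM. The cystine transporter Slc7a11 was the 1 gene higher in both, at 258.6 and 275.8 CPM against 67.1 and 66.2 CPM. Of the 17 genes measured around activin and TGF-beta, none was 2-fold higher or lower in both, and the medians were -0.24 and -0.08. The activin inhibitor Fst had no UMI in Fcmr+/+ members and 1.09 CPM in Fcmr-/- members, and the induced inhibitor Smad7 had ratios of 1.20 and 0.76.

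Glycolysis and hypoxia genes were higher as a group. Of 33, 11 were 2-fold or more higher in Fcmr+/+ members and 12 in Fcmr-/-, 9 in both, with medians of 0.86 and 0.80 and no gene lower by that much. Egln3, an oxygen sensor induced by hypoxia, stood at 255.2 and 212.0 CPM against 51.1 and 45.4 CPM. Ero1l, an oxidase of the endoplasmic reticulum, stood at 785.3 and 687.4 CPM against 153.9 and 172.7 CPM, and the glucose transporter Slc2a1 at 626.7 and 463.3 CPM against 142.7 and 146.9 CPM. The angiogenic factor Vegfa had ratios of 1.66 and 1.26. The glycolytic enzyme genes Gapdh, at 0.97 and 0.74, and Ldha, at 0.72 and 0.67, did not reach 2-fold.

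Among 25 genes of lipid-associated and matrix-remodelling macrophages, 9 were higher in both, with medians of 0.59 and 0.55. They included the secreted proteases Mmp8, Mmp12 and Mmp13, the matrix protein gene Thbs1 and the plasminogen activator inhibitor Serpinb2, with Mmp13 at 256.0 and 319.7 CPM against 40.7 and 87.7 CPM. Genes of lipid-associated macrophages went both ways. The receptor gene Trem2 was at -1.26 and -0.65 on the log2 scale, the lipase gene Lpl at -1.02 and -0.95 and the fatty acid carrier gene Fabp5 at -0.25 and -0.07, while the tetraspanin gene Cd9 was at 1.15 and 1.04, the osteopontin gene Spp1 at 1.17 and 0.62 and the galectin gene Lgals3 at 0.59 and 0.55. Of 8 measured monocyte genes, 4 were higher in both, and the medians were 1.25 and 1.29. Clec4e, a receptor for mycobacterial glycolipid, stood at 612.9 and 772.8 CPM against 208.7 and 208.4 CPM, and Ly6c2 at 76.7 and 231.9 CPM against 30.7 and 100.8 CPM. In Fcmr+/+ 1 cell gave 53.9% of the Ly6c2 UMIs of members, which stood at 35.7 CPM without it. Without the cell holding most UMIs of each gene, 2 of the 8 genes were higher in both and the median in Fcmr+/+ was 0.64. Ccr2, which brings monocytes to tissue, was not among them, at -0.30 and -0.23.

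Genes of resident and scavenger macrophages were low. Of 16, 10 were 2-fold or more lower in Fcmr+/+ members and 9 in Fcmr-/-, with medians of -1.29 and -1.13, and none was higher. Gas6, a bridge between dying cells and MerTk, stood at 35.3 and 30.4 CPM in members against 265.3 and 150.2 CPM. The mannose receptor Mrc1 stood at 321.5 and 236.5 CPM against 912.4 and 648.3 CPM, and Folr2 at 104.3 and 75.4 CPM against 243.6 and 169.6 CPM. The complement genes C1qa, C1qb and C1qc, counted above with the macrophage genes and not in this list, were lower by 2-fold or more in both. C1qa stood at 839.6 and 942.9 CPM against 2273 and 2345 CPM.

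Cell cycle genes were low in members. All 26 were 2-fold or more lower in Fcmr+/+ members and 25 in Fcmr-/-, with medians of -2.74 and -1.98. Mki67, the proliferation marker, stood at 6.90 and 21.1 CPM in members against 82.9 and 67.2 CPM in the remaining cells, and Top2a, a topoisomerase of dividing cells, at 5.17 and 16.0 CPM against 66.2 and 75.1 CPM. Against remaining cells between the 10th and 90th percentile of the members' depth the medians were -1.30 and -0.90. The same comparison gave 1.11 and 1.52 for NF-kB and LPS genes, 1.11 and 0.90 for type I interferon, 0.74 and 0.68 for glycolysis and hypoxia, and -1.06 and -0.998 for resident-type genes. Other lists fell below the 0.5 in size used to call a median. Lipid and matrix genes were at 0.32 and 0.21 in this comparison. TCA cycle and redox genes, called in Fcmr+/+ alone, were at -0.46 there and -0.25 in Fcmr-/-. In Fcmr+/+ monocyte genes were at 0.49 and type II interferon genes at 0.42. In Fcmr-/- monocyte genes were at 0.75 and type II interferon genes at 0.76. MHC class II genes went the other way and passed 0.5 in size in Fcmr+/+, at -0.64, with -0.22 in Fcmr-/-. The remaining cells so chosen were still deeper, at a median of 12971 and 10778 UMIs.

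**Figure D3:**
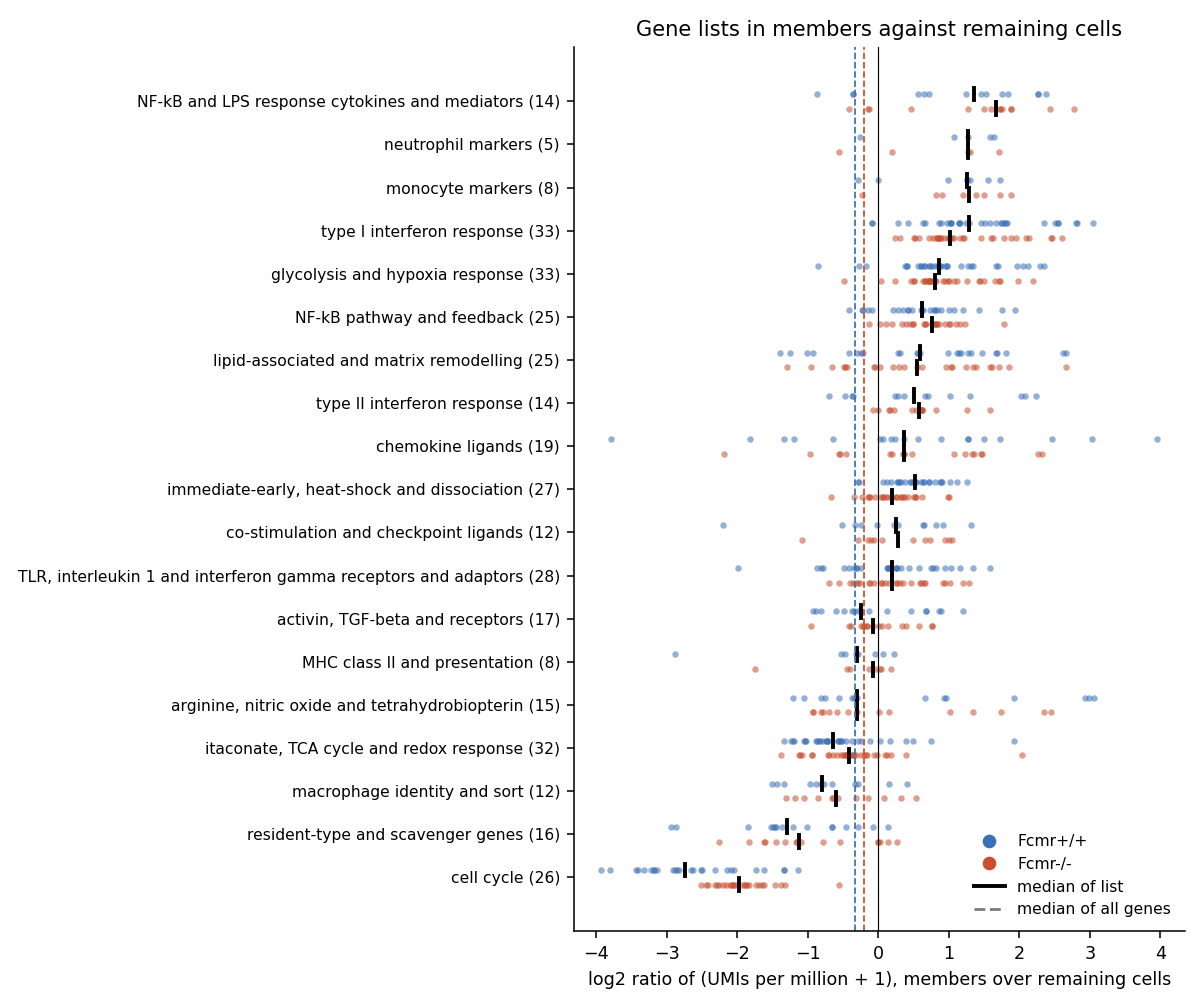
Each point is the log2 ratio of 1 gene, members over remaining cells, in Fcmr+/+ (blue) or Fcmr-/- (red), with black bars at list medians, dashed lines at the medians of all genes and the number of measured genes in brackets. NF-kB and LPS genes have medians of 1.35 and 1.66, and cell cycle genes of -2.74 and -1.98.

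Genes with the largest ratios in both genotypes included several outside these lists. Tnfrsf9, which encodes the co-stimulatory receptor 4-1BB, ranked first, at 127.6 and 96.8 CPM in members against 9.71 and 12.6 CPM, although 1 cell gave 33.1% of its UMIs in Fcmr+/+ members. Cd200, an inhibitory ligand for myeloid cells, stood at 76.7 and 86.9 CPM against 5.84 and 13.9 CPM. Slpi, a secreted protease inhibitor, stood at 683.6 and 319.1 CPM against 52.5 and 58.1 CPM. Met, the receptor for hepatocyte growth factor, stood at 54.3 and 63.3 CPM against 6.01 and 11.9 CPM. Hcar2, a receptor for hydroxybutyrate, had ratios of 3.24 and 2.12, and Mir155hg, the host transcript of the inflammatory microRNA miR-155, had 2.13 and 2.60. The others among the 20 highest were the listed genes named above with Ifit2, and AA467197, H2-Q6, Mgarp and Hbb-bs. AA467197, the host gene of miR-147, stood at 484.5 and 272.4 CPM against 66.0 and 60.5 CPM. H2-Q6 belongs to a family of near-identical class I genes, so its reads are uncertain. The hemoglobin gene Hbb-bs had 98.6% and 97.6% of its member UMIs in 1 cell of each genotype and carries no weight. Among the 10 lowest were the cell cycle genes 2810417H13Rik, Ube2c, Birc5, Top2a, Stmn1, Cks1b and Mki67, with Gas6, the elastase gene Cela1 (-2.39 and -2.07) and the tetraspanin gene Cd81 (-2.10 and -1.61).

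Where the ratios of the genotypes differed most, the difference lay partly in the remaining cells. Gbp2, an interferon-induced GTPase, was 2.23 on the log2 scale in Fcmr+/+ and 0.54 in Fcmr-/-, and its level was 100.9 and 197.6 CPM in members against 20.7 and 135.7 CPM in the remaining cells. In Fcmr+/+ 1 cell gave 59.8% of the Gbp2 UMIs of members, and without it the level was 41.8 CPM and the ratio 0.98. Ccl12 went from 122.4 CPM in Fcmr+/+ members and 435.3 CPM in the remaining cells to 453.7 and 624.9 CPM in Fcmr-/-. For Ccl5 (468.1 against 247.2 CPM, with 26.5% of its UMIs in Fcmr+/+ members from 1 cell), Slpi, the linker histone gene Hist1h1c (356.0 against 82.4 CPM) and the IgG transport receptor gene Fcgrt (73.3 against 26.1 CPM), members themselves were higher in Fcmr+/+. In Fcmr+/+ members 1 cell gave 31.8% of the Fcgrt UMIs and 1 cell gave 19.5% of the Slpi UMIs. The Fcgrt ratio in Fcmr+/+ ran from -2.57 to 0.02 under the alternatives. Mki67, Top2a and Stmn1 were higher in Fcmr-/- members, but on only 8, 6 and 28 UMIs in Fcmr+/+ members. Fcmr-/- members held 136, 103 and 301 UMIs of them, with 20.4% of those of Top2a from 1 cell. Over the type II interferon list, the median log2 ratio of Fcmr-/- over Fcmr+/+ was 1.13 in members and 1.02 in the remaining cells, and over all genes it was 0.14 and 0.01. None of these differences has a replicate.

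Members overlapped unevenly with the top 5% of cells on 9 other scores. They were frequent among hypoxia-scored cells, 41.8% of Fcmr+/+ members (31.9 to 52.2) and 27.6% of Fcmr-/- members (24.1 to 31.3) against 3.60% and 3.81% of the remaining cells. Among cells high in Il1b and Cxcl2 the shares were 35.7% and 27.7% against 3.68% and 3.81%. For the type I interferon score the shares were 21.4% and 21.1% against 4.03% and 4.26%, and for Mmp12 and Gpr137b 11.2% and 17.1% against 3.60% and 5.10%. Members were nearly absent from the complement C1q score, 0% of Fcmr+/+ members (up to 3.69) and 0.323% of Fcmr-/- members against 4.21% and 6.14%, and from the Mrc1, Cd163 and Folr2 score. For Cxcl9 and Iigp1 the shares were 0% and 5.32% against 0.560% and 8.81%, and for MHC class II 2.04% and 2.10% against 4.94% and 5.34%. For a monocyte score of Ly6c2, Ccr2, Plac8 and Chil3 they were 2.04% (0.248 to 7.18) against 3.37% in Fcmr+/+ and 9.52% (7.32 to 12.1) against 6.04% in Fcmr-/-, while the medians of the longer monocyte list were above 1 in both. At other thresholds on both scores some of these directions turned. In Fcmr+/+ the monocyte shares were 2.94% of members against 1.28% of the remaining cells for the top 2% and 15.4% against 7.09% for the top 10%, and the MHC class II shares were 2.94% against 2.23% and 10.3% against 8.99%. For Cxcl9 and Iigp1 in Fcmr+/+ the shares at the top 10% were 2.14% against 1.06%, and for the monocyte score in Fcmr-/- at the top 2% they were 2.37% against 2.57%. None of the 9 took in 25.5% and 27.3% of members, and 35.7% and 32.4% were in 2 or more, against 5.10% and 8.88% of the remaining cells.

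**Figure D4:**
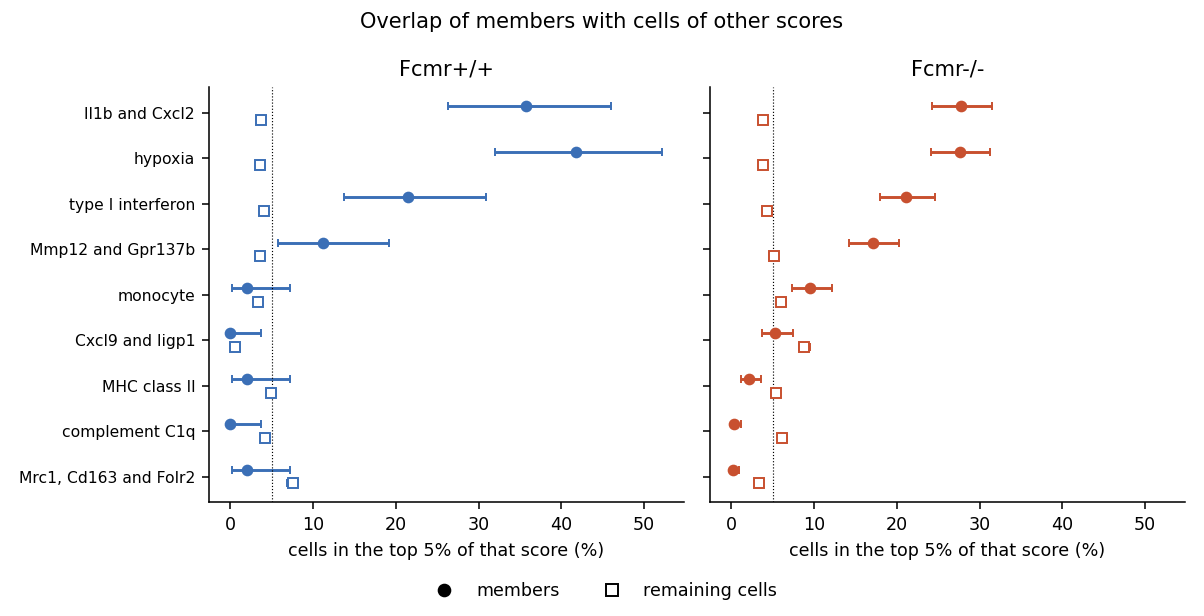
Share of members (filled circles) and of remaining cells (open squares) that were in the top 5% of each of 9 other scores, in percent, with 95% exact Clopper-Pearson intervals and a dotted line at 5%. Members lie above 5% for hypoxia, Il1b and Cxcl2, type I interferon, and Mmp12 and Gpr137b in both genotypes.

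The members were not uniform, and the gene that led the score went with different companions. Irg1-led members were higher in Cxcl10 and type II interferon genes. Cxcl10 stood at 1922 CPM in the 18 Irg1-led Fcmr+/+ members and 1647 CPM in the 141 Irg1-led Fcmr-/- members, against 534.7 and 429.9 CPM in other members, and the type II interferon list had medians of 1.58 and 1.21 against the remaining cells. In the 15 and 107 Nos2-led members that list was at 0.03 and 0.92, and in the 64 and 356 Inhba-led members at -0.09 and -0.04. Type I interferon genes were less divided, with medians in Fcmr+/+ of 1.54 in Irg1-led, 1.51 in Nos2-led and 1.10 in Inhba-led members, and in Fcmr-/- of 1.54, 1.17 and 0.68. In the type I interferon score were 22.2% of Irg1-led and 23.4% of Inhba-led Fcmr+/+ members, and 36.2% and 14.0% in Fcmr-/-. Inhba-led members were instead higher in Ccl24 (88.3 and 210.4 CPM against 32.2 and 46.1 CPM, or 49.3 and 154.4 CPM without the cell holding most of its UMIs), in Fn1, which encodes fibronectin (803.9 and 750.0 CPM against 421.9 and 386.1 CPM), and in the median of monocyte genes, at 1.496 and 1.40 against 0.57 and 1.09 in Irg1-led and 0.50 and 0.76 in Nos2-led members. The monocyte score did not follow that order in Fcmr-/-, where it took in 8.43% of Inhba-led, 14.2% of Irg1-led and 8.41% of Nos2-led members. Nos2-led members were the most hypoxic, with 12 of 15 in Fcmr+/+ (80%, 51.9 to 95.7) and 44 of 107 in Fcmr-/- (41.1%, 31.7 to 51.0) in the hypoxia score, against 40.6% and 28.9% of Inhba-led and 11.1% and 12.8% of Irg1-led members. The Fcmr+/+ groups led by Nos2 and Irg1 held 15 and 18 cells, so their values rest on few cells.

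The gene lists also changed along the score below the threshold, where no member lies. In Fcmr-/-, NF-kB and LPS genes summed to 2450 CPM in the 4203 cells with no UMI of the 3 genes, to 2459, 3864 and 5418 CPM in the lower, middle and upper score groups of the remaining cells, and to 7625 and 10509 CPM in the lower- and higher-scoring members. In Fcmr+/+ they went from 2560 to 3237, 4393 and 5169 CPM and then to 8579 and 9542 CPM. Type I interferon genes went from 1464 CPM in Fcmr+/+ cells with none to 9052 CPM in the 38 higher-scoring members, and from 1990 to 6911 CPM in Fcmr-/-. Cell cycle genes went from 1366 to 178.4 CPM and from 1238 to 203.8 CPM, though in Fcmr-/- the lowest scored group stood above the cells with none, at 1525 CPM. That group was also the deepest, with a median of 21157 UMIs. MHC class II genes were higher in scored cells below the threshold than in cells with none, and lower again in members. They went from 9582 CPM to 10131, 11612 and 12244 CPM in Fcmr-/- and then to 10740 and 10680 CPM in members, and from 7327 to 8135, 8822 and 8780 CPM in Fcmr+/+ and then to 6677 and 8011 CPM.

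**Figure D5:**
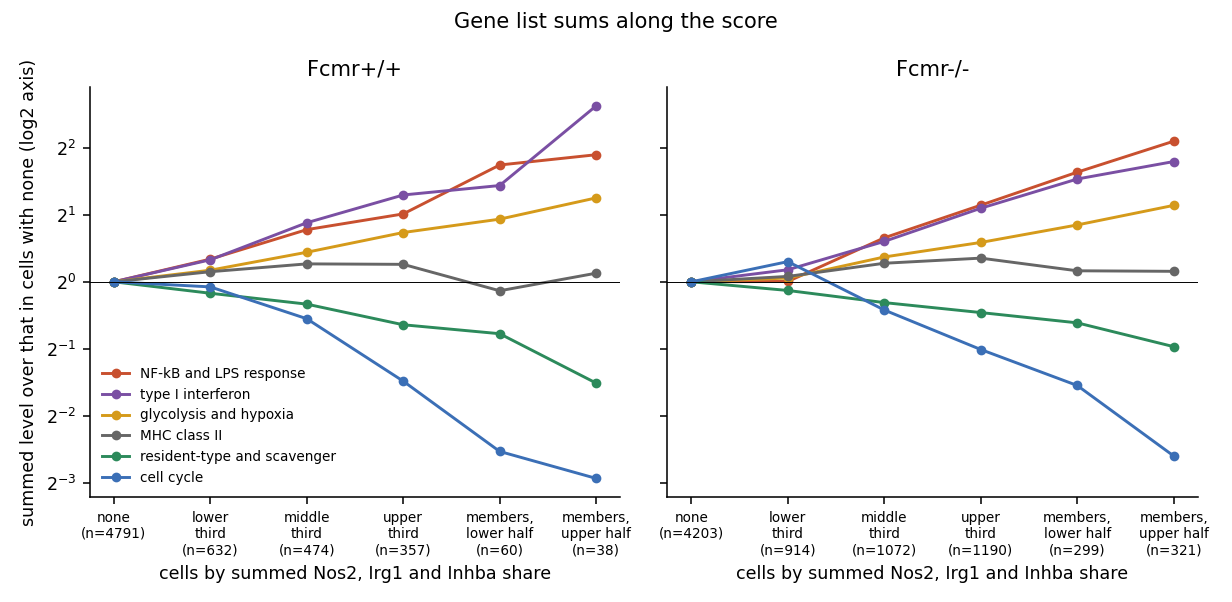
Summed level of 6 gene lists over that in cells with no UMI of Nos2, Irg1 or Inhba (log2 axis), for remaining cells in 3 score groups and members in 2, by genotype. NF-kB and LPS, interferon and hypoxia genes are higher, and resident-type and cell cycle genes lower, in each group of members than in cells with none.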

How the data were processed

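Per the labels and methods, the authors mapped reads to GRCm38 with Cell Ranger and deposited 1 matrix of raw UMI counts per library, and used Seurat 2.1.0. Those deposited counts were used here with no sample's column left unmapped. Cells were kept by the limits of the study (200 to 7000 genes, at most 30% mitochondrial UMIs). Counts were summed over members and over the remaining cells of each library and scaled to CPM with Python 3.11.15, numpy 2.4.6, scipy 1.17.1 and pandas 2.3.3. A gene was called at 2-fold or more and a list at a median of 0.5 or more in size. Poisson and Clopper-Pearson intervals (95%) cover counting error only. No doublet caller was run; alternatives left out the deepest cells and cells with markers of other types. Genes were named as the 20 highest and 10 lowest ratios nearer 0, and the 5 each way that differed most between genotypes. List members were added as examples. The ranked genes had 50 CPM or more in members or in remaining cells of each library, so members alone could bring a gene in. Ptges, Ifnb1, Fst, Il12a and Il12b, below the filter, were picked after their values were seen. Calculations were tested on simulated data. Members and gene lists were chosen with earlier results of these data known. Alternatives changed the threshold, score, thinning, limits, scaling, pseudocount (0.1 or 5 CPM) and filter (1 or 20 CPM), and, added after seeing the data, the depth of the remaining cells, cells with a cell cycle UMI, and the member cell with most UMIs of a gene. Some results were left out and are not reported here.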

Additional observations from a re-analysis of the deposited data

Results flagged for a closer look

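Il1r2, the decoy receptor of interleukin 1, stood on opposite sides in the genotypes, at 1.58 on the log2 scale of members over remaining cells in Fcmr+/+ and -0.56 in Fcmr-/-, where each library is a single sample and the difference was not tested. In Fcmr+/+ its member level came from 6 cells, and 1 of them gave 47.7% of its UMIs.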

How the results depend on the processing

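Each group is 1 library, so no alternative tests the difference between genotypes, and few UMIs limit ratios in the 98 Fcmr+/+ members. No paired analysis was possible because each genotype has 1 library. The ratio of the member shares (5.02) lay between 3.84 and 5.91 wherever cells were ranked together, the lowest without Irg1 in the score, and a threshold set within each library gave 0.999 by construction. Genes higher in both genotypes (179) came to 296 with scaling by the median ratio and 102 with a filter at 20 CPM. Genes lower in both (358) came to 763 for the top 2% of cells, 185 for the top 10%, 221 without Inhba in the score, 213 with scaling by the median ratio, 159 with a pseudocount of 5 CPM, 153 with a filter at 20 CPM and, in a comparison added after seeing the data, 101 against remaining cells of like depth. The NF-kB and LPS median (1.35 in Fcmr+/+, 1.66 in Fcmr-/-) stayed above 0.5 throughout. In Fcmr+/+ it was 0.68 with each gene measured without the member cell holding most of its UMIs, a choice added after seeing the data. For the top 2% it was 0.949 and 1.94, and with scaling by the median ratio 1.69 and 1.87. In Fcmr-/- it was 1.28 for the top 10%, 1.44 with the mean log score, 1.48 without Irg1, 1.12 without Inhba, 1.48 without the deepest 10% of cells, 1.39 with a pseudocount of 5 CPM and 1.386 with a filter at 20 CPM. Of 920 values of other lists, 701 stayed within the counting interval and 2 of those past 0.5 in size changed sign, both for dendritic cell genes in Fcmr+/+, at 0.31 for the top 10% and 0.14 within each library. Medians under 0.5 crossed 0 under some alternatives for MHC class II, arginine, activin, Toll-like receptor and melanoma genes. Of 1554 values of named genes, 872 stayed within it and 8 of those past 2-fold changed sign. Of these, 7 were Hbb-bs: in Fcmr+/+ -3.85 for the top 2%, -2.90 with the mean log score or without its top cell and -2.99 without Inhba, and in Fcmr-/- -0.79 without its top cell, -0.85 without the deepest cells and -1.56 without cells holding a cell cycle UMI. The other was 2810417H13Rik in Fcmr-/-, at 0.13 without cells holding a cell cycle UMI, a choice also added after seeing the data. For other changes the cause was not tested. At the top 2% and 10% of both scores, members stayed on the same side of the remaining cells for 6 of the 9 overlap scores in both genotypes, and changed side at 1 or both for monocyte, MHC class II, and Cxcl9 and Iigp1 genes, with values given above.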

Other observations

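Immediate-early and heat-shock genes, which tissue digestion can induce, had a higher median in members of the Fcmr+/+ library. Of 27 measured genes the median log2 ratio of members over remaining cells was 0.51 in Fcmr+/+ and 0.19 in Fcmr-/-, and 3 and 1 genes were 2-fold or more higher. Dusp1, a phosphatase induced by stress, stood at 2869 and 1951 CPM in members against 1326 and 1273 CPM in the remaining cells, and the heat-shock gene Hspa1a at 448.3 and 284.0 CPM against 256.8 and 272.5 CPM. In Fcmr+/+ 1 cell gave 33.3% of the Hspa1a UMIs of members, which stood at 304.8 CPM without it. The median in Fcmr+/+ was 0.34 against remaining cells of like depth and 0.36 without the member cell holding most UMIs of each gene. Their part in the other results was not tested.

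Among 12 measured genes of a list of co-stimulatory and checkpoint ligands, which does not hold Cd274 (counted above with the type II interferon genes), none was 2-fold or more higher in both genotypes by the count used here, with medians of 0.25 and 0.27. Cd80 came closest, at 37.9 and 35.4 CPM in members against 14.7 and 17.2 CPM, ratios of 1.31 and 0.997. Cd276 was the 1 gene lower in both, at 0.862 and 2.02 CPM against 7.58 and 5.38 CPM.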
